A study of Mus musculus with 12 samples.

Results

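Dividing radial glia-like cells of the neonatal mouse dentate gyrus are described here at postnatal day 7 (P7), in 431 cells of the 24213 that passed the cell filter of 3 single-cell libraries. The cells were selected on their measured RNA. A member held at least 1 unique molecular identifier (UMI, a tag that marks 1 captured RNA molecule) of at least 3 of 8 radial glia-like (RGL) genes (Hopx, Frzb, Lpar1, Wnt8b, Tfap2c, Gdf10, Riiad1 and Thrsp), no UMI of Eomes, at most 1 of 5 astrocyte genes (Aqp4, Aldh1l1, Agt, Slc7a10 and F3), and at least 3 of 8 division genes (Mki67, Top2a, Cenpf, Cenpa, Ube2c, Birc5, Cdk1 and Rrm2). The wild-type library gave 183 such cells of 10997, 98 of 6685 came from mutants with nestin-Cre (Larp7 f/f;nestin-Cre), and 150 of 6531 from mutants with Emx1-Cre (Larp7 f/f;Emx1-Cre). Since these 22 genes chose the cells, their levels are given as a description only.

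RGL cells are the stem cells of the dentate gyrus. They carry a radial process and glial genes, and after division they give rise to neuronal intermediate progenitor cells (nIPCs), which express Eomes (Tbr2) and divide further before becoming neuroblasts and granule neurons. In the first postnatal weeks part of the RGL pool is still cycling, while another part enters the quiescence that is kept into adulthood. Larp7 is an RNA-binding protein that stabilizes the 7SK small nuclear RNA, and the 7SK particle, together with Hexim1, holds the transcription elongation kinase P-TEFb in an inactive state.

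The study asked how loss of Larp7 affects the neurogenic lineage. Wild-type mice were Larp7-floxed animals without Cre. Both mutants carried the floxed alleles on both chromosomes, in which Cre removes exon 9 of Larp7. Nestin-Cre acts in neural stem and progenitor cells across the nervous system and also in other organs, whereas Emx1-Cre acts in progenitors of the dorsal forebrain. Dentate gyri of several littermates were pooled into 1 library per genotype, so no difference between genotypes has a replicate, no test was possible, and intervals given on values of the single-cell libraries cover counting error only. The titles and the genotype entries of both mutant libraries name opposite Cre drivers, and the titles were followed here. Either way both libraries are labelled as Larp7 mutants.

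Many genes of division share short elements close to their start sites: the cell cycle genes homology region (CHR), which is bound by the MuvB complex, the CCAAT box, bound by NF-Y, and E2F sites. The 250 bases before the start sites of 3 division genes of the cell rule and of the replication helicase gene Mcm5 are shown as examples of how these elements are arranged in the genes that set the dividing cells apart. Sequences are those of RefSeq (GRCm38.p6), written 5′ to 3′ on the strand of the gene, and capitals mark matches, on either strand, to TTTGAA (CHR), CCAAT, and TTTCGCGC or TTTGGCGC (E2F). The windows lie at chr11:99024190-99024439 (minus strand, Top2a, which untangles DNA), chr10:69352913-69353162 (minus strand, Cdk1, the kinase that starts mitosis), chr7:135716380-135716629 (minus strand, Mki67, the Ki-67 antigen of dividing cells) and chr8:75109259-75109508 (plus strand, Mcm5).
Top2a: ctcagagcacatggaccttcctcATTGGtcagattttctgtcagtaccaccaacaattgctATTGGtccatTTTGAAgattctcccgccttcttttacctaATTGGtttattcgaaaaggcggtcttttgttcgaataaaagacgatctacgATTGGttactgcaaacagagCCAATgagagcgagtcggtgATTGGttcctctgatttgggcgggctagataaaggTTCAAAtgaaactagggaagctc
Cdk1: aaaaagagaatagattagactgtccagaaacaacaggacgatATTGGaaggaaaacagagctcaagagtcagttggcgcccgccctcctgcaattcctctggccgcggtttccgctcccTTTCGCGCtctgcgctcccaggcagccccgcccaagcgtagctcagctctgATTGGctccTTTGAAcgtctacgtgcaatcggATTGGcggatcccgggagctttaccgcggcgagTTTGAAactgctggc
Mki67: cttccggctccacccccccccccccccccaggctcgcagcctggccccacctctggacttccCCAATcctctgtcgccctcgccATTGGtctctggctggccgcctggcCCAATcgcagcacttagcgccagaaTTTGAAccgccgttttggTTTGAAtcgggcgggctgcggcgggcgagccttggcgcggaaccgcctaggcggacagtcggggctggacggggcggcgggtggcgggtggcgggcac
Mcm5: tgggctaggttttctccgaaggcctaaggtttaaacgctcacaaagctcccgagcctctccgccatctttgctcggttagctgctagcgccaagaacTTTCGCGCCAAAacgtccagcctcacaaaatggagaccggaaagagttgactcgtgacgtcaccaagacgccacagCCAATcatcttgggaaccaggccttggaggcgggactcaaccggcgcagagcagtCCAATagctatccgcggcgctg
The Top2a window held 2 CHR matches and 6 CCAAT matches, that of Cdk1 held 2 CHR, 3 CCAAT and 1 E2F match, and that of Mki67 held 2 CHR and 3 CCAAT matches. Mcm5 had no CHR match, 2 CCAAT matches and 2 E2F matches that overlap each other. Among the 8 division genes of the rule, 4 windows had a CHR match and 7 a CCAAT match. Over 47 mitosis genes with a window in the RefSeq table (of 56 listed), 34.0% had a CHR match, 74.5% a CCAAT match and 31.9% both, beside 16.3%, 34.5% and 5.73% of all 27025 windows of the same length. Of 41 DNA replication genes with a window (of 51 listed), 14.6% had a CHR match, 63.4% a CCAAT match and 12.2% an E2F match, the last beside 0.673% of all windows. A match is a string of letters and not a bound site.

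Hopx, a homeodomain-only factor of RGL cells, was detected in 96.7% of the wild-type members, 98.0% of the nestin-Cre members and 99.3% of the Emx1-Cre members. Microglia, which are not known to make Hopx, serve here as a gauge of free RNA. They were cells with at least 3 of 6 microglial markers and fewer than 3 RGL genes, which limits how often RGL genes appear in them. Of these cells 16.2%, 8.78% and 11.0% held a Hopx UMI. Their median was 2344, 3288.5 and 3238.5 UMIs per cell beside 4527, 5334.5 and 5747.5 in the members. Thrsp, a regulator of lipid synthesis found in neural stem cells, was detected in 87.4%, 91.8% and 92.0% of members and 12.9%, 5.86% and 8.94% of microglia. Tfap2c, a transcription factor of the AP-2 family, was seen in fewer cells, namely 36.6%, 49.0% and 56.0% of members beside 2.90%, 1.13% and 1.63% of microglia. Dividing nIPCs, which by rule held fewer than 3 RGL genes, still held Hopx in 31.1%, 25.7% and 32.1% of cells. Thrsp was detected in 40.0%, 58.8% and 58.8% of them and Tfap2c in 11.0%, 18.8% and 15.3%. Mki67 was detected in 78.7%, 80.6% and 80.7% of members and Top2a in 71.0%, 80.6% and 78.7%. Microglia, which can themselves divide at this age, held Mki67 in 18.0%, 16.9% and 19.9% of cells and Top2a in 23.4%, 17.6% and 20.3%. Sox2, a stem cell factor that the rule did not use, was detected in 80.9%, 98.0% and 94.7% of members and in 23.0%, 7.43% and 12.6% of microglia. It was also seen in 66.6%, 85.0% and 83.4% of dividing nIPCs, so it does not set the members apart from them, and detection of the genes of the rule follows from the choice of cells.

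The level of Hopx over all members of a library was 848 UMIs per 1000000 UMIs (CPM, exact 95% interval 790 to 910) in wild-type, 766 (696 to 841) in nestin-Cre and 918 (858 to 980) in Emx1-Cre. Tfap2c stood at 91.2 (72.8 to 113), 120 (93.0 to 152) and 131 (109 to 155) CPM, and Thrsp at 554 (507 to 604), 803 (731 to 880) and 678 (627 to 732) CPM. Wnt8b, a Wnt ligand made in the medial pallium, was at 84.7, 59.9 and 48.7 CPM. Mki67 was at 469 (426 to 516), 618 (555 to 686) and 559 (513 to 609) CPM and Top2a at 656 (605 to 710), 961 (882 to 1045) and 945 (884 to 1008) CPM. Cenpf, a kinetochore protein, was at 862, 1187 and 1146 CPM, while Ube2c, which hands ubiquitin to the anaphase-promoting complex, was at 563, 533 and 509 CPM.

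The rule divided a continuous range. Among the 779 RGL cells of the wild-type library, 397 had none of the 8 division genes, 136 had 1, 63 had 2 and 35 had 3, while 17 had all 8. Among the 696 of the nestin-Cre library, 31 cells lay just outside the limit with 2 division genes and 17 just inside with 3. Among the 790 of the Emx1-Cre library, 45 cells had 2 and 18 had 3. On the RGL side the members clustered at the limit, since 94, 38 and 56 of them held exactly 3 RGL genes, and another 222, 66 and 109 cells would have entered at 2 RGL genes. Cells that met every criterion but held an Eomes UMI numbered 98, 90 and 150, so the border with dividing nIPCs was populated in all 3 libraries.

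**Figure D1:**
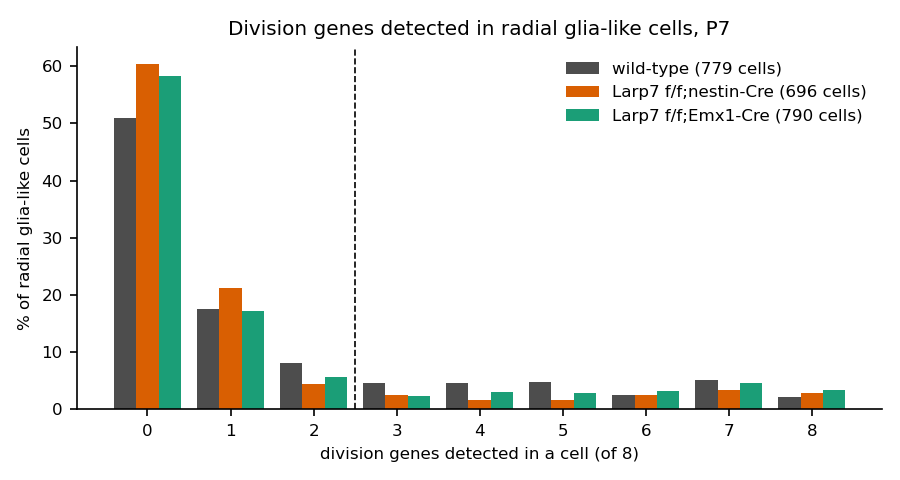
Share of RGL cells (y axis, %) by the number of the 8 division genes with at least 1 UMI (x axis) in the 3 P7 libraries, with the limit of 3 genes as a dashed line. Most RGL cells held 0 or 1 division gene, and the cells right of the line spread over all values from 3 to 8.

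Of all RGL cells, those at least at the limit made up 23.5% (exact 95% binomial interval 20.6 to 26.6) in wild-type, 14.1% (11.6 to 16.9) in nestin-Cre and 19.0% (16.3 to 21.9) in Emx1-Cre. The nestin-Cre share was 9.41 percentage points lower than the wild-type share (difference -9.41, 95% interval -13.3 to -5.43) and the Emx1-Cre share 4.50 points lower (difference -4.50, -8.54 to -0.456). The RGL cells of the wild-type library were the shallowest, with a median of 3148 UMIs beside 3872.5 and 3795.5. With every cell thinned to 2000 UMIs, which left out 5899, 971 and 692 shallower cells (21, 1 and 2 of them members), the shares were 14.5%, 6.79% and 12.1%. The interval of the Emx1-Cre difference then ran from -6.72 to 1.62 points, and it reached 0 in 4 of the 8 other settings tried, whereas that of the nestin-Cre difference did so in 0 of 8. Without the cells that held markers of other types, described below, it ran from -7.74 to 0.369 points. No setting relaxed the condition on Eomes, which left out the 98, 90 and 150 cells that met the rest of the rule. Both comparisons use the same wild-type library. The non-dividing side differed in the opposite sense, with RGL cells lacking all division genes at 51.0%, 60.3% and 58.2% of RGL cells. As a share of all filtered cells, the members were 1.66%, 1.47% and 2.30%.

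**Figure D2:**
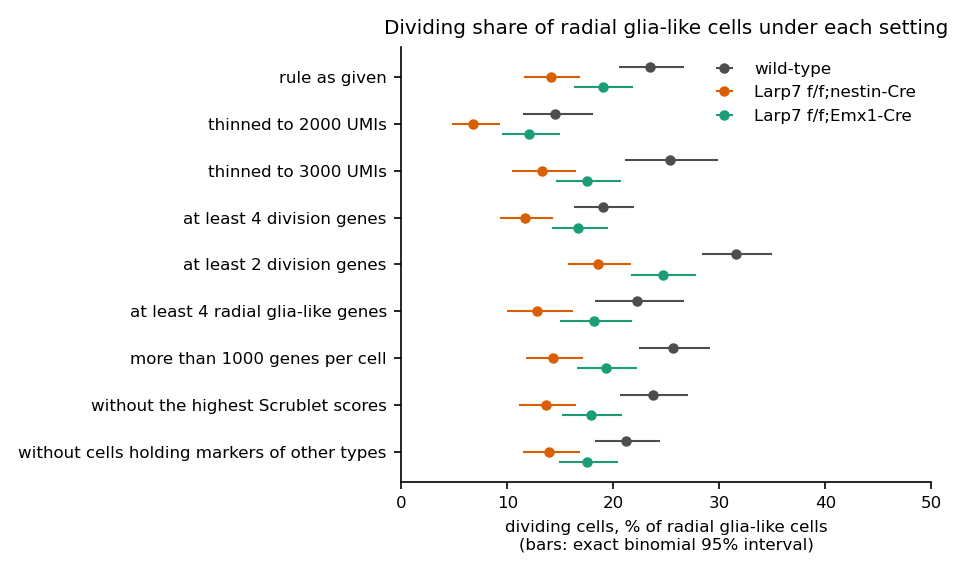
Dividing cells as a percentage of RGL cells (x axis, points with exact 95% binomial intervals) in the 3 libraries, under the rule as given and 8 other settings (y axis). In every setting the wild-type point lies to the right and the nestin-Cre point to the left, with 23.5% and 14.1% under the rule as given.

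RNA of other cell types was not evenly spread over the libraries, and this bears on every level below. The red blood cell markers, 4 haemoglobin genes, made up 14.95 of 10000 UMIs in the wild-type members, 0.370 in the nestin-Cre members and 4.26 in the Emx1-Cre members. The 6 microglial markers made up 2.80, 1.00 and 1.66, and the 5 endothelial markers 2.94, 0.123 and 5.28, with 3 of the 5 at 0 in nestin-Cre. At least 3 markers of a type outside the lineage (microglia, red blood cells, endothelium, oligodendrocyte precursors, mural cells or interneurons) were held by 33, 3 and 18 members, and the values without these cells are given below where they matter. Members above 15000 UMIs numbered 3, 0 and 3, of which 3, 0 and 2 held such markers. Neuroblast markers, 7 genes, gave 14.1, 15.3 and 17.1 of 10000 UMIs. At least 3 of them were held by 73 of 183, 45 of 98 and 55 of 150 members, and none by 17, 3 and 6. Cells with neuroblast markers were kept in the values without cells holding markers of other types. The libraries shared 23, 19 and 11 cell barcodes in pairs, and no barcode was a member in 2 libraries.

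Within the dividing cells, RNA of mitosis outweighed RNA of replication. The 56 mitosis genes gave 127, 147 and 132 of 10000 UMIs in the wild-type, nestin-Cre and Emx1-Cre members, and the 51 DNA replication genes 41.3, 44.8 and 43.7. Cells with more mitosis than replication UMIs numbered 154 of 183 (84.2%), 79 of 98 (80.6%) and 122 of 150 (81.3%). The rule itself favours such cells, because most of its division genes act late in the cycle while Rrm2, a subunit of ribonucleotide reductase, serves DNA synthesis. The single-cell values formed an arc from cells high in replication genes and low in mitosis genes to the reverse, in each library. Dividing nIPCs of the same libraries had 154, 156 and 146 mitosis UMIs and 48.1, 52.0 and 55.1 replication UMIs per 10000.

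**Figure D3:**
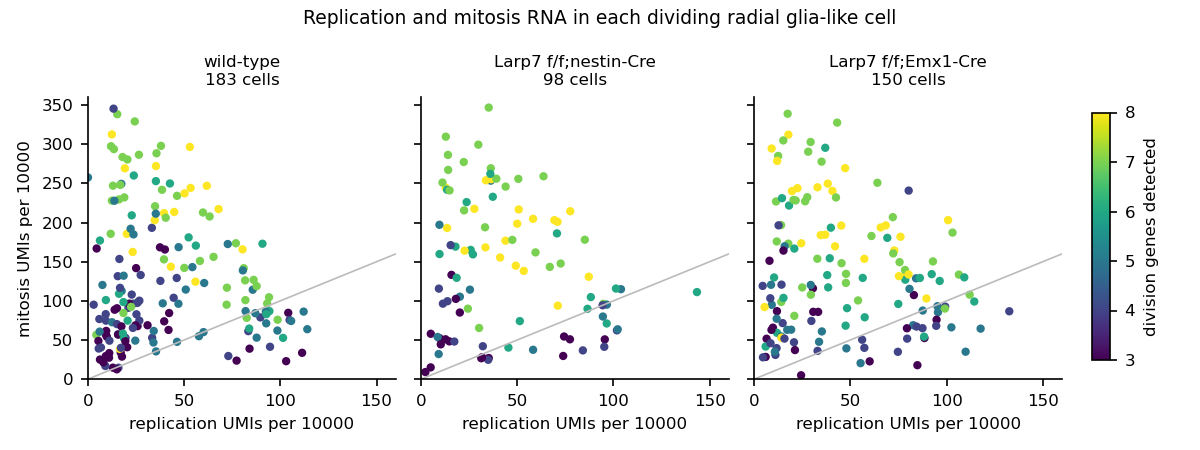
UMIs of 51 DNA replication genes (x axis) and 56 mitosis genes (y axis) per 10000 UMIs of a cell, 1 point per dividing RGL cell, coloured by the number of division genes detected (3 to 8), in 3 panels by library with the line of equal values. Most points lie above the line, 154, 79 and 122 cells.

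Against non-dividing RGL cells of the same library, the dividing cells kept part of the stem cell programme and carried less of the glial one. Fabp7, a fatty acid-binding protein of radial glia, was at 5083, 4199 and 4245 CPM in the wild-type, nestin-Cre and Emx1-Cre members beside 11816, 9489 and 10847 in non-dividing cells. Aldoc, a glycolytic enzyme of astrocytes and quiescent stem cells, was at 458, 364 and 384 beside 2017, 1891 and 1793 CPM. Slc1a3, the glial glutamate transporter, was at 1399, 1905 and 1529 beside 2887, 3828 and 3262 CPM. These values were lower in dividing cells in 3 of 3 libraries. Sox2 differed little, at 591, 845 and 724 CPM beside 630, 796 and 826. Vim and Nes, intermediate filaments of radial cells, were also close, with Vim at 964, 984 and 932 beside 1067, 882 and 995 CPM.

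The cyclin D genes, which drive entry into the cycle, split between dividing and non-dividing RGL cells, with Ccnd2 at 945, 1227 and 843 CPM against 733, 836 and 759 in non-dividing cells and Ccnd1 at 177, 227 and 214 against 252, 304 and 313. Hes5, a Notch effector that holds back neurogenesis, was at 682, 489 and 507 CPM in dividing and 1452, 1424 and 1194 in non-dividing cells. Id3, an inhibitor of proneural factors downstream of BMP signals, was at 610, 873 and 836 against 1213, 1998 and 1755 CPM.

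Over 8010 genes compared with non-dividing cells, 566 (7.07%) were at least 1.5-fold higher in all 3 libraries and 544 (6.79%) at least 1.5-fold lower. No test applies, because the cells were chosen on division genes. Mitosis genes were higher in 53 of 54, with a median log2 ratio of 4.32, 4.87 and 4.61 in the 3 libraries, and DNA replication genes in 39 of 43, with 1.86, 2.16 and 1.86, beside medians over all genes of -0.04, -0.04 and -0.04. Of 13 astrocyte genes 9 were lower, of 27 stem cell identity genes 11 were lower and none higher, and of 22 immediate early genes 11 were lower and 1 higher. Of 31 lipid synthesis genes 7 were lower and none higher, with medians of -0.47, -0.51 and -0.59. Among the 7 was Hmgcs1 of the cholesterol pathway, at 370, 442 and 441 against 762, 895 and 947 CPM. Of 22 neuronal commitment genes 5 were higher and 1 lower.

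The genes furthest above non-dividing cells outside the rule included Neil3, Kif15, Bub1, Ckap2l, Hmmr, Ccnb1, Cdca3, Cdca8 and Ccnb2. Ccnb1, the mitotic cyclin B, was at 229, 254 and 205 CPM beside 4.28, 0.649 and 1.80. Cdca8, a subunit of the chromosomal passenger complex, was at 431, 491 and 459 beside 8.57, 5.84 and 7.80 CPM. Neil3, a DNA glycosylase, was at 88.0, 89.8 and 70.4 beside 0.857, 0.649 and 0.600 CPM. The non-dividing cells had 1167361, 1540630 and 1666057 summed UMIs, so their values of Neil3 and Ccnb1 rest on few UMIs. The 10 furthest below were Mia, Aldoc, Rhcg, Gm12216, Paqr6, Izumo4, Gdpd2, Zfp467, Hspa1b and Arc. Rhcg, an ammonium transporter, was at 21.7, 14.1 and 12.4 beside 95.9, 68.2 and 98.4 CPM, and Paqr6 at 14.1, 10.6 and 12.4 beside 59.1, 64.9 and 62.4 CPM. All but Aldoc were below 100 CPM in both groups. In the wild-type members Mia, Gm12216 and Arc were at 3.26, 2.17 and 2.17 CPM, which rest on few UMIs.

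Against dividing nIPCs, where both groups cycle, the division programme was close and the stem and neuronal programmes were far apart. Of 56 mitosis genes 2 were at least 1.5-fold higher in all 3 libraries and 3 lower, and of 50 DNA replication genes none was higher and 2 were lower. Of 26 stem cell identity genes 17 were higher and 2 lower, with medians of 1.46, 1.75 and 1.66 on the log2 scale, and of 28 neuronal commitment genes 1 was higher and 20 lower, with -1.81, -1.80 and -1.76. Lipid synthesis genes were higher in 21 of 31, astrocyte genes in 11 of 13 and immediate early genes in 11 of 20. Over all 8971 genes, 955 (10.6%) were higher and 466 (5.19%) lower by this measure, with medians of 0.02, 0.07 and 0.02. The nIPCs were chosen by an Eomes UMI and fewer than 3 RGL genes, the members by no Eomes UMI and at least 3 RGL genes. Both groups had to hold at least 3 division genes and at most 1 astrocyte gene. Differences in the stem, glial and neuronal programmes, and the closeness of the division programme, therefore follow from the choice to an unknown extent.

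The genes furthest above dividing nIPCs were Ccdc80, Sned1, Naaa, 1500015O10Rik, Tnc, Entpd2, Pbxip1, Klf4, Nkain4 and Myl9. Tnc, the matrix protein tenascin C, was at 152, 185 and 152 CPM in wild-type, nestin-Cre and Emx1-Cre members beside 16.7, 6.53 and 7.27 in dividing nIPCs. Ccdc80, a secreted protein, was at 79.3, 100.4 and 123 beside 7.84, 9.79 and 9.79 CPM. Entpd2, an ectonucleotidase that cleaves ATP outside the cell, was at 71.7, 56.3 and 68.4 beside 6.41, 6.53 and 2.84 CPM. The genes furthest below were Myo1a, Tac2, Unc5d, Neurod4, Sstr2, Scrt2, Fam159b, Mpped1, Slc17a6 and Celsr3. In the wild-type members Myo1a, Unc5d and Celsr3 were at 1.09, 2.17 and 2.17 CPM, which rest on few UMIs. Tac2, the neurokinin B precursor, was at 53.2, 15.8 and 31.1 beside 557, 685 and 538 CPM. Neurod4, a proneural factor, was at 7.60 CPM in wild-type, had no UMI in nestin-Cre and was at 6.22 in Emx1-Cre, beside 73.4, 91.4 and 97.0 CPM.

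**Figure D4:**
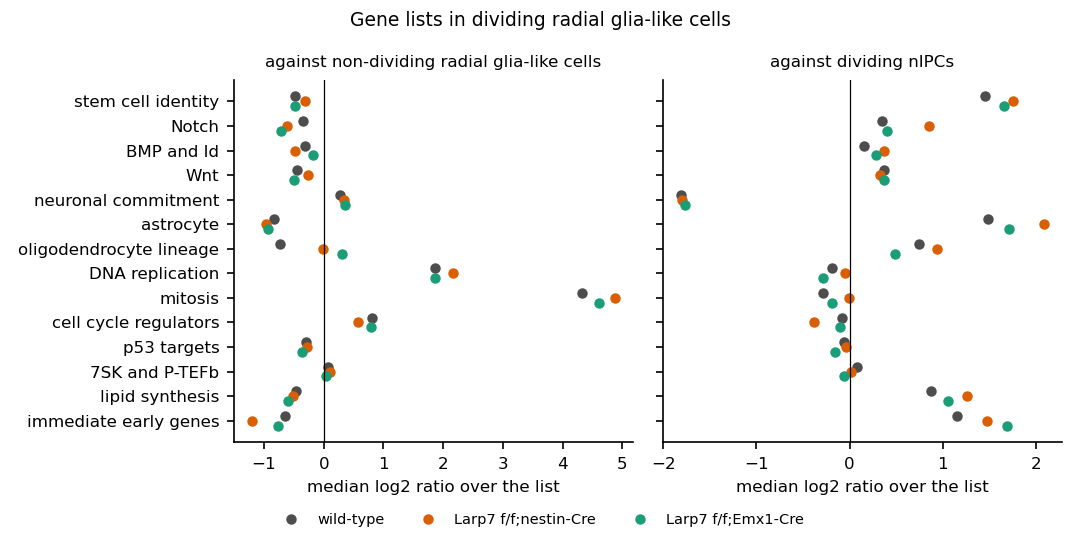
Median log2 ratio (x axis) of 14 gene lists (y axis) in dividing RGL cells against non-dividing RGL cells (left) and dividing nIPCs (right), 1 point per library. Mitosis and DNA replication stand out on the left, with medians of 4.32 and 1.86 in wild-type, and on the right stem cell identity and neuronal commitment lie on opposite sides, at 1.46 and -1.81 in wild-type.

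Larp7 itself was at 98.8 CPM (79.6 to 121, 91 UMIs) in the wild-type members, 17.6 (8.44 to 32.4, 10 UMIs) in the nestin-Cre members and 19.7 (11.9 to 30.7, 19 UMIs) in the Emx1-Cre members. Both mutant libraries were well below wild-type. Among wild-type cells the dividing RGL level was above the 34.3 CPM (24.5 to 46.7) of non-dividing RGL cells and near the 105 CPM (93.1 to 117) of dividing nIPCs. The reads come from the 3′ end of the transcript and not from the deleted exon, so they show less Larp7 RNA and do not show the deletion. In microglia, which do not descend from neural progenitors, Larp7 was at 57.4, 35.7 and 39.2 CPM.

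Mutant members were then set against wild-type members for 4293 genes that had at least 100 UMIs over the 3 libraries and were not used by the rule. In nestin-Cre, 455 genes (10.6%) were at least 1.5-fold higher and 232 (5.4%) at least 1.5-fold lower. In Emx1-Cre, 230 (5.36%) were higher and 103 (2.4%) lower. The median log2 ratio over all genes was 0.05 and 0.04. Under a scaling by the median of ratios instead of total UMIs the counts became 333 higher and 304 lower in nestin-Cre and 157 and 151 in Emx1-Cre, so the share of higher genes went from 66.2% to 52.3% and from 69.1% to 51.0%. The excess of higher genes therefore depended on the scaling. Counts of this kind include genes that pass 1.5-fold by counting error, the more so at low levels and in the nestin-Cre library with its 567975 summed UMIs beside 920836 and 965271.

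Immediate early genes, which are switched on within minutes of a stimulus, among them tissue dissociation, held the largest share of genes at or beyond 1.5-fold among the lists with more than 2 measured genes. Of 27 listed, 16 had enough UMIs, and 7 of these were at least 1.5-fold higher and 2 lower in nestin-Cre, with 8 and 0 in Emx1-Cre. Over all genes 10.6% were higher and 5.4% lower by this measure in nestin-Cre, and 5.36% and 2.4% in Emx1-Cre. The medians of the list were 0.42 and 0.54, beside 0.05 and 0.04 over all genes. Fos was at 1033 CPM (968 to 1100) in wild-type, 2222 (2101 to 2348) in nestin-Cre and 1949 (1862 to 2039) in Emx1-Cre members. Its log2 ratio was 1.11 (0.98 to 1.23) and 0.92 (0.80 to 1.03). Egr1, a zinc finger factor, was at 414, 759 and 686 CPM, Btg2, an antiproliferative cofactor, at 320, 551 and 522, and Klf4 at 80.4, 160 and 137. For all 4 genes both mutant libraries lay above wild-type with intervals of the ratio that did not reach 0. Jun was at 514, 519 and 676 CPM and Nr4a1, Ier5 and Klf6 were near the wild-type level in both. Klf2 and Atf3 were the 2 lower genes in nestin-Cre, and Klf2 turned from -0.72 to 1.30 without the cells that held markers of other types.

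The same genes were measured in other cells of the same libraries. In non-dividing RGL cells Fos was at 2261, 3841 and 3313 CPM, a log2 ratio of 0.76 and 0.55, and the medians of the list were 0.86 and 0.65. In dividing nIPCs Fos was at 428, 468 and 521 CPM, with list medians of -0.24 and 0.09. In microglia Fos was at 710, 1002 and 828 CPM. How far handling of the tissue, depth or genotype contributes cannot be told apart with 1 library per genotype.

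Id1 was at 325, 474 and 433 CPM, Id2 at 238, 372 and 346, Id3 at 610, 873 and 836 and Id4 at 127, 188 and 167 in wild-type, nestin-Cre and Emx1-Cre. These proteins bind and block proneural bHLH factors and are induced by BMP. The log2 ratio of Id2 was 0.64 (0.36 to 0.92) in nestin-Cre and 0.54 (0.29 to 0.79) in Emx1-Cre, and the other 3 lay between 0.39 and 0.57. Of the 9 BMP and Id genes with enough UMIs, 8 were above wild-type in each mutant, with medians of 0.52 and 0.39, while 2 and 1 passed 1.5-fold, beside 10.6% and 5.36% of all genes. Above wild-type by any amount were 2369 of all 4293 genes in nestin-Cre and 2335 in Emx1-Cre. Among the others, the receptor gene Bmpr1a was at 68.4, 84.5 and 114 CPM and Smad1 at 99.9, 160 and 103. In dividing nIPCs of the same libraries the medians of this list were 0.23 and 0.14, and Id3 was at 134, 68.6 and 84.3 CPM.

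Of 24 stem cell identity genes 18 lay above wild-type in each mutant, with medians of 0.27 and 0.13, beside the 2369 and 2335 of 4293 and the medians of 0.05 and 0.04 over all genes. At least 1.5-fold higher were 3 in nestin-Cre and 1 in Emx1-Cre, where 10.6% and 5.36% of all genes were. Sox9, which specifies glial and stem cell fate, was at 424 CPM (383 to 468), 688 (622 to 760) and 578 (531 to 628). Sox1 was at 80.4, 144 and 131 and Pax6, a factor of cortical progenitors, at 155, 264 and 214 CPM. Sox2 was at 591, 845 and 724 CPM, a log2 ratio of 0.52 (0.34 to 0.70) and 0.29 (0.13 to 0.46), which became 0.31 and 0.26 without the cells holding markers of other types. The most abundant gene of the list went the other way, since Fabp7 had log2 ratios of -0.28 (-0.35 to -0.20) and -0.26 (-0.32 to -0.20). Of 5 Notch genes with enough UMIs (of 18) none passed 1.5-fold in either direction, and Hes5 was at 682, 489 and 507 CPM, ratios of -0.48 and -0.43. Of 9 Wnt genes with enough UMIs (of 29) 3 were at least 1.5-fold higher in nestin-Cre and 1 in Emx1-Cre, among them the receptor Fzd1 at 58.6, 98.6 and 77.7 CPM in the former.

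Of 19 neuronal commitment genes 6 were at least 1.5-fold higher and 1 lower in nestin-Cre (median 0.28), beside 10.6% and 5.4% of all genes, and 4 and 0 in Emx1-Cre (median 0.34), beside 5.36% and 2.4%. Without the members of the highest doublet scores (Scrublet) the medians were 0.10 and -0.12, so the direction in Emx1-Cre turned. Prox1, which sets granule neuron identity, was at 110 CPM (89.3 to 133), 243 (204 to 287) and 172 (147 to 200). Neurod1, which acts in granule neuron precursors, was at 69.5, 106 and 132 CPM and Gadd45g at 102.1, 167 and 149. Igfbpl1, a gene of nIPCs and neuroblasts, was the gene on the lower side at 368, 245 and 307 CPM. Without the cells holding markers of other types, the Prox1 ratios went from 1.15 to 0.94 in nestin-Cre and stayed at 0.65 in Emx1-Cre. In non-dividing RGL cells Prox1 was at 111, 183 and 175 CPM.

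**Figure D5:**
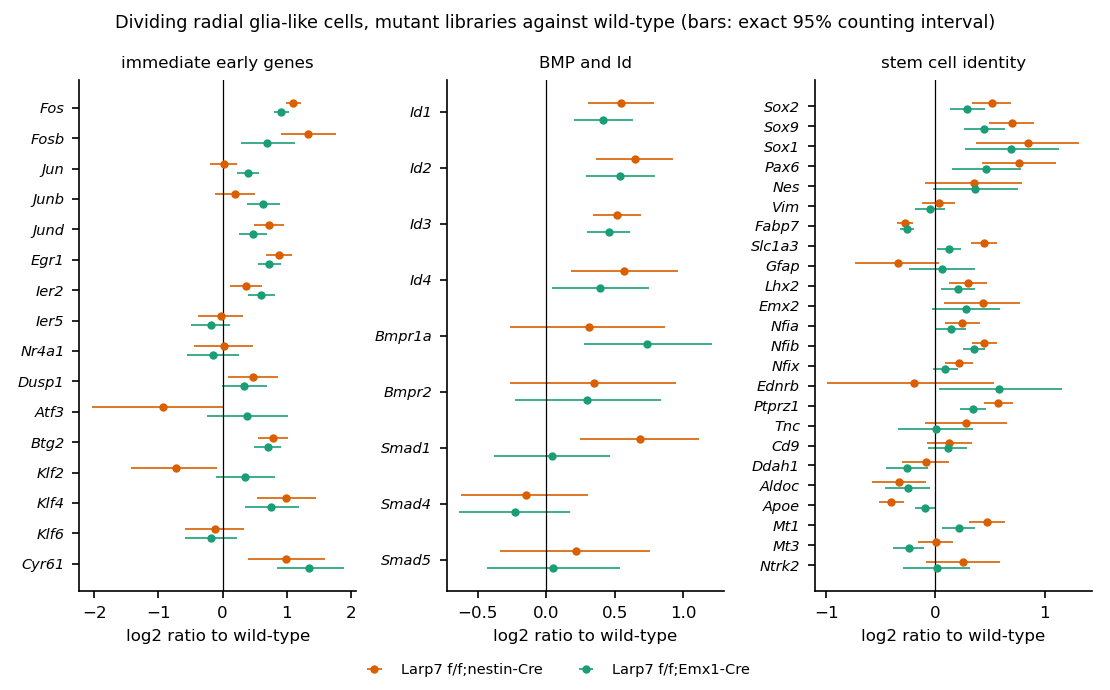
Log2 ratio to wild-type (x axis, exact 95% counting intervals) in dividing RGL cells for the genes with enough UMIs of 3 lists, immediate early genes, BMP and Id genes, and stem cell identity genes, in the nestin-Cre and Emx1-Cre libraries. Fos, Egr1, the Id genes and Sox9 lie right of 0 in both, while Fabp7 lies left at -0.28 and -0.26.

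Division genes outside the rule passed 1.5-fold in few cases. Members of every library were chosen by their division genes, so closeness to wild-type follows from the choice to an unknown extent. Whether the division programme differs between genotypes apart from this choice was not tested. Of 37 DNA replication genes 2 passed 1.5-fold upward and 1 downward in nestin-Cre (median 0.06) and 1 and 1 in Emx1-Cre (median 0.07). Of 52 mitosis genes 5 and 1 did so in nestin-Cre (median 0.16) and 1 and 0 in Emx1-Cre (median 0.06), and without the cells holding markers of other types the medians were -0.0029 and -0.0089. Over all genes 10.6% and 5.4% did so in nestin-Cre, and 5.36% and 2.4% in Emx1-Cre. Above wild-type by any amount were 41 of the 52 mitosis genes in nestin-Cre and 29 in Emx1-Cre, and 24 and 22 of the 37 replication genes, beside 2369 and 2335 of all 4293. Ckap5, a microtubule polymerase, was at 236, 412 and 307 CPM, and Kif4, a chromosome-bound kinesin, at 68.4, 114 and 112. Ccnb2, cyclin B2, was below wild-type at 225 (195 to 258), 137 (109 to 171) and 153 (130 to 180) CPM. Mcm3, a subunit of the replicative helicase, was at 72.8, 134 and 116 CPM. Among 19 cell cycle regulators, the transcription factor E2f8 was at 34.8, 75.7 and 44.5 CPM and Lin9, a subunit of the MuvB complex named above, at 30.4, 51.1 and 55.9. Cdkn1a, the inhibitor p21 and a p53 target, was at 43.4, 22.9 and 54.9 CPM, and its ratios of -0.89 and 0.33 became 0.25 and 1.57 without the cells holding markers of other types.

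The remaining lists showed smaller or mixed differences. Over all genes 10.6% were at least 1.5-fold higher and 5.4% lower in nestin-Cre, and 5.36% and 2.4% in Emx1-Cre. Of 25 lipid synthesis genes 1 was higher and 3 lower in nestin-Cre, and 1 and 1 in Emx1-Cre, with medians of 0.06 and 0.04. Mvk, mevalonate kinase, was at 109, 66.9 and 60.1 CPM, whereas Stard4, a sterol carrier, was at 39.1, 70.4 and 69.4. Of 11 astrocyte genes none passed 1.5-fold in nestin-Cre and 1, the receptor Fgfr3, was lower in Emx1-Cre, at 61.9 CPM in wild-type, 44.0 in nestin-Cre and 25.9 in Emx1-Cre. Of 13 genes of the 7SK particle and P-TEFb only Nelfe, a subunit of the pausing factor NELF, passed, at 92.3, 58.1 and 77.7 CPM, lower in nestin-Cre. Of 8 p53 targets 1 was higher and 1 lower in nestin-Cre and 2 and 0 in Emx1-Cre. Only 2 of 16 oligodendrocyte lineage genes had enough UMIs, among them Bcan, a matrix proteoglycan, at 99.9, 70.4 and 47.7 CPM.

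Across all genes, 139 were at least 1.5-fold higher and 39 at least 1.5-fold lower in both mutants, which share the wild-type library. The 10 higher genes with the largest smaller ratio included Txnip, Pou3f2, Gm26669, Tmem41b, Atp6v1h, Snrnp200, Bhlhe40, Npc1 and Cyr61. Txnip, an inhibitor of thioredoxin, was at 29.3 CPM (19.3 to 42.7) in wild-type, 95.1 (71.4 to 124) in nestin-Cre and 79.8 (63.0 to 99.7) in Emx1-Cre. Its ratios were 1.68 (1.01 to 2.42) and 1.43 (0.80 to 2.13). Pou3f2, a POU factor of neural progenitors and upper-layer neurons, was at 43.4 (31.0 to 59.2), 107 (82.2 to 138) and 103 (83.4 to 125) CPM. Snrnp200, a helicase of the spliceosome, was at 53.2, 116 and 114 CPM. Npc1, which carries cholesterol out of lysosomes, was at 31.5, 63.4 and 64.2 CPM and Cyr61, a secreted matrix protein, at 47.8, 95.1 and 122. All 10 were also at log2 ratios of at least 0.89 in each mutant without the cells holding markers of other types. Txnip and Snrnp200 were higher in non-dividing RGL cells too, with ratios of 1.54 and 1.17 for Txnip and 1.13 and 1.00 for Snrnp200, whereas Pou3f2 was at 0.21 and 0.34 there. In dividing nIPCs the ratios were 0.66 and 0.82 for Pou3f2, 0.46 and 0.32 for Txnip, and 0.70 and 0.56 for Snrnp200.

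Larp7, the targeted gene described above, was left out of the naming by rule. The 10 lower genes included Hba-a1, Ccl4, Hbb-bs, Hbb-bt, Hba-a2, Hist1h2bc, Ppp1r35, C1qc and Dexi. Of these, 4 are haemoglobin genes of red blood cells and Ccl4 and C1qc are abundant in microglia, and they moved with the markers of those cells given above. Without the cells holding markers of other types all of them stayed below wild-type in both mutants. The ratios then ran from -2.46 (Ccl4) to -0.36 (Hba-a2) in nestin-Cre and from -4.03 (Hbb-bt) to -0.13 (Hba-a2) in Emx1-Cre. C1qc was then at -1.01 and -2.05. Hbb-bs was at 745, 21.1 and 214 CPM and C1qc at 85.8, 22.9 and 46.6 in members, beside 2778 CPM of C1qc in wild-type microglia. The part of these cells in the result was not tested. Hist1h2bc, Ppp1r35 and Dexi moved little without the cells carrying markers of other types. Hist1h2bc, a histone H2B gene, was at 227 CPM (197 to 260), 79.2 (57.8 to 106) and 85.0 (67.6 to 105), ratios of -1.51 and -1.41, and -1.60 and -1.46 without those cells. Ppp1r35, a centrosome protein, was at 69.5, 26.4 and 37.3 CPM and Dexi at 60.8, 33.5 and 31.1. Hist1h2bc was lower as well in non-dividing RGL cells, at -0.999 and -1.76, and in dividing nIPCs, at -1.46 and -1.15, while in microglia it was at 131, 72.7 and 140 CPM. Without the cells holding markers of other types the same rule named Hist1h2bc, Atp6v1d, Ppp1r35, Ap4s1, Ak6, Mettl23, Actr1b, Pabpn1, Commd3 and Mpnd as lower. Among them Pabpn1, which binds poly(A) tails in the nucleus, was then at 168, 101.2 and 96.2 CPM.

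Genes higher in the mutant members were longer than the lower ones. The median exon length was 7425 bases for the higher, 3016.5 for the lower and 4218.5 for the remaining genes in nestin-Cre, and 6135.5, 2697 and 4324 bases in Emx1-Cre, over 4289 genes with a length. Over 5 groups of equal size, from the shortest to the longest genes, the median log2 ratio ran from -0.15 to 0.30 in nestin-Cre and from -0.09 to 0.18 in Emx1-Cre members. Non-dividing RGL cells ran from -0.20 to 0.27 and from -0.11 to 0.19, and microglia from -0.14 to 0.12 and from -0.08 to 0.11. The order was thus not particular to dividing cells, and its cause was not tested.

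The same genes were also measured in neurospheres, cultures grown from P1 dentate gyrus, with 2 wild-type and 3 Larp7 f/f;Emx1-Cre libraries of bulk RNA. The titles of these libraries mark day 2 of differentiation. Their growth protocol describes dissociated cells replated for that time with bFGF, and so do the study's methods, where serum follows. The study's account of its results instead has growth factors withdrawn and serum added from the start, and this difference was not resolved here. Eomes, the marker of nIPCs, was nearly absent at 0.25 to 0.59 CPM, while the oligodendrocyte lineage genes Olig1, Olig2 and Pdgfra were at 3332 to 4006, 1336 to 1647 and 754 to 1297 CPM. In bulk RNA fewer cells of a type and less RNA per cell cannot be told apart. Total counts lay between 59821311 and 62474602 per library. Larp7 was at 42.3 and 34.5 CPM in the wild-type libraries and at 4.15, 6.50 and 4.42 in the knockouts, a log2 ratio of -2.97 ± 0.205 (SE), with an adjusted p of 0.0198 by edgeR's quasi-likelihood test with Benjamini-Hochberg adjustment. By that test 3 of 17753 genes rose (0.0169%) and 3 fell (0.0169%). Rlbp1, a retinoid-binding protein of glia, rose from 77.2 and 79.7 to 189, 246 and 233 CPM, Moxd1 rose by 1.16 and Gm38733 by 3.51 on the log2 scale, and H2-Ke6 and the desaturase gene Scd4 fell by 1.09 and 3.11.

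No RGL or division gene of the rule passed in the neurospheres. Mki67 was at 394 and 196 CPM in the wild-type and at 517, 533 and 497 in the knockout libraries, a log2 ratio of 0.78 ± 0.264 (SE), with an edgeR adjusted p of 0.175. Top2a was at 488 and 243 beside 631, 605 and 590 CPM, a ratio of 0.71 ± 0.265 (edgeR adjusted p = 0.201). The groups did not overlap for these genes, and the wild-type libraries differed from each other by more than the 3 knockout libraries did. By edgeR, 0 of 8 division genes, 0 of 56 mitosis genes and 0 of 51 DNA replication genes were called. At an unadjusted p under 0.05 the counts were 5, 40 and 27, all higher, and by DESeq2 1, 24 and 13. Without wild-type library 1, the library with the higher division genes, edgeR called 8, 54 and 47, and over all genes 1905 in place of 6, but this leaves 1 wild-type library that is assumed to vary like the knockouts. Without wild-type library 2 it called 0 in each list. Median ratios over all 5 libraries were 0.68 for mitosis and 0.49 for DNA replication genes, beside 0.01 over all genes. They were 1.24 and 0.88 without wild-type library 1 and 0.29 and 0.18 without wild-type library 2.

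Hopx was nearly absent from the neurospheres, at 1.96 and 1.26 CPM in wild-type and 2.31, 3.12 and 2.14 in knockout libraries, and Wnt8b lay below 1 CPM in all 5. Thrsp was at 21.3 and 24.2 beside 28.1, 12.6 and 21.5 CPM, which overlap. Of the RGL genes of the rule 6 could be tested and 0 were called by edgeR, 0 by DESeq2 and 1, Frzb, which encodes a secreted Wnt antagonist, was lower at an unadjusted p under 0.05. Sox2 was at 337 and 421 beside 379, 387 and 366 CPM (ratio -0.04 ± 0.102 SE, edgeR adjusted p = 0.857). Sox9 was at 253 and 247 beside 341, 447 and 339 CPM (0.55 ± 0.123, edgeR adjusted p = 0.108). Snrnp200 was at 290 and 293 beside 372, 378 and 370 CPM (0.33 ± 0.0564, edgeR adjusted p = 0.0933). For Sox9 and Snrnp200 every knockout library lay above both wild-type libraries. Fos lay the other way, at 150 and 171 CPM in wild-type and 110, 69.9 and 95.1 in knockout (-0.83 ± 0.188, edgeR adjusted p = 0.110), while Egr1 was at 433 and 302 beside 596, 527 and 661 CPM. Of 26 immediate early genes tested edgeR called 0, with a median ratio of 0.40. At an unadjusted edgeR p under 0.05, 13 were higher and 2 lower, beside 1849 and 1997 of all 17753 genes. By DESeq2 11 were higher and 2 lower, beside 728 and 863 of 14697. Of the 10 higher genes of the dividing cells, 8 could be tested here, and 0 were called by edgeR, 2 by DESeq2 and 2 at an unadjusted p under 0.05, and of the 10 lower genes 3 could be tested, with 0 in each case.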

How the data were processed

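Dentate gyri were dissociated and made into single-cell libraries with the 10x Genomics 3′ kit (v3.1). The authors deposited UMI counts per gene and barcode (Cell Ranger 4.0.0 per the file headers, mm10 per the submitters' notes) and read counts per gene for the neurospheres, aligned with Minimap2 to the Ensembl mouse transcriptome per the methods. Counts were used as deposited. Cells with more than 500 genes and under 15% mitochondrial UMIs were kept. The study states these limits, but a larger number of cells for each library and another Cell Ranger version than the headers, which was not resolved. Doublets were not removed, and Scrublet scores (scanpy 1.11.5) served in an alternative. Members were summed per library and expressed as CPM, with exact Poisson 95% intervals, conditional exact intervals of the ratio, and Newcombe intervals for differences of shares. Ratios used a pseudocount of 0.5 UMIs. With 1 library per genotype no test was run. Genes with at least 100 UMIs over the members were compared, and the 10 with the largest smaller ratio in each direction were named, by a 1.5-fold limit in both mutants, or in all 3 libraries for the other cell groups. Larp7, genes of the rule, mitochondrial and sex-linked genes were left out of the naming against wild-type. Neurosphere counts were tested with edgeR 4.0.16 (quasi-likelihood, adjusted p under 0.05) and DESeq2 1.42.0 in R 4.3.3. The number a replicate carries was not used as a block. Gene symbols came from RefSeq for 39373 of 40814 identifiers. A further 5 sample columns of that table were not used. The authors' other file types were not analysed here. The replicates are not stated to come from separate animals, so p-values measure the spread between these libraries. A few genes that met the rules are not reported here. The edgeR fit of the neurospheres was tested on simulated data. Members and lists were chosen with earlier results of these data known.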

Additional observations from a re-analysis of the deposited data

Results flagged for a closer look

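In the dividing RGL cells, 20 genes were at least 1.5-fold from wild-type in opposite directions in the mutant libraries, which share the wild-type library, and this difference between the mutants was not tested. They were Bgn, Car4, Cldn5, Ctla2a, Egfl7, Flt1, Fn1, Gng11, Itm2a, Kdr, Nrep, Pglyrp1, Pltp, Slc16a1, Slc38a5, Spock2, Sptbn1, Tsix, Vtn and Vwa1. All but Tsix were lower in nestin-Cre and higher in Emx1-Cre, and many are genes of endothelial or mural cells, such as Cldn5, a tight junction protein, at 195 CPM in wild-type, 7.04 in nestin-Cre and 373 in Emx1-Cre. Flt1, a VEGF receptor, was at 42.4 CPM, had no UMI in nestin-Cre and was at 79.8 CPM. The 5 endothelial markers made up 2.94, 0.123 and 5.28 of 10000 UMIs in the wild-type, nestin-Cre and Emx1-Cre members. Without the cells that held at least 3 markers of another type, 1 such gene remained, Tsix, the antisense partner of Xist, at 56.5, 100.4 and 29.0 CPM over all members. Without members above 15000 UMIs there were 2, Sepp1 and Tsix. The part of other cells in the result was not tested.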

How the results depend on the processing

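With 1 library per genotype, no value of the single cells has a replicate check. The dividing share lay below wild-type in all 8 other settings in both mutants, but the interval of the Emx1-Cre difference reached 0 in 4 of them. None of these settings relaxed the condition on Eomes. It left out 98 otherwise qualifying cells in wild-type, 90 in nestin-Cre and 150 in Emx1-Cre, and how the share depends on it was not tested. For counts of genes past 1.5-fold in either direction, 687 in nestin-Cre and 333 in Emx1-Cre of 4293 compared, the values were 189 and 123 of 1453 with members thinned to 2000 UMIs, 363 and 221 of 2773 with at least 4 RGL genes, 1491 and 835 of 6825 at a minimum of 50 UMIs and 227 and 98 of 2258 at 200. The 36 ratios of the named genes reported here, over 8 settings, were the same within counting error in 264 cases and moved in 24. Of the list medians 7 reversed: 7SK in nestin-Cre at -0.35 thinned and -0.0247 with at least 4 RGL genes, mitosis in nestin-Cre at -0.0185 with at least 4 RGL genes and -0.0051 without cells holding markers of other types, and in Emx1-Cre astrocyte genes at 0.0599 thinned, neuronal commitment at -0.12 without the highest Scrublet scores and the oligodendrocyte lineage at 0.33 with a minimum of 50 UMIs. The cause was not tested. No oligodendrocyte lineage gene was left when thinned or at a minimum of 200 UMIs, which gave no median. The settings without cells holding markers of other types and without members above 15000 UMIs were chosen after seeing the data.

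In the neurospheres edgeR called 6 genes, 3 without a filter on low counts, and DESeq2 1591. Leaving out 1 library gave between 0 and 1905 calls, the highest without wild-type library 1 and none without knockout library 3. With the replicate number as a block edgeR called 0 genes, against 6 without it, and DESeq2, run so after seeing the data, 350 against 1591. At an unadjusted p under 0.05 edgeR gave 1139 higher and 1325 lower with the block and 1849 and 1997 without it. Deviations of same-numbered libraries from their group means had correlations of -0.00533 and 0.0934. The deviations of the wild-type libraries mirror each other by construction, so these correlations cannot decide whether the numbers mark a pairing. Larp7 was not called under the block or without knockout library 1 or 3.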
